A study of Arabidopsis thaliana with 27 samples.

Results

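MIR399B (AT1G63005) and MIR399C (AT5G62162) are 2 of the 323 miRNA loci counted in small RNA libraries from etiolated Arabidopsis thaliana hypocotyls, and were taken by their symbols. Seedlings were uvr8-6, xpf-3 or wild type (WT, Columbia-0), and each genotype received UV-B at 3000 or 30000 µmol per square metre or stayed in the dark, which made 9 groups of 3 libraries. The sample records give a shorter exposure of 5 minutes and a longer one of 45 minutes. Dose and length of exposure therefore cannot be told apart here. All groups, controls included, grew for 2.5 days without light on filter paper with 0.5x MS medium and 100 µM GA4, a gibberellin, before exposure. Hypocotyls were cut 6 hours after UV-B per the extraction protocol, whereas the title of the series gives 2 days. UVR8 is the photoreceptor for UV-B and XPF is part of the endonuclease that cuts beside UV lesions in nucleotide excision repair. The tables hold no transcripts of these genes and no protein-coding markers, so neither the genotypes nor the tissue could be checked. No label says that replicates came from separate cultures, and the p-values then describe the spread between these libraries, which may be technical.

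The miR399 family is the best known systemic signal of phosphate starvation in plants. Its genes are transcribed when the factor PHR1 binds the P1BS element under low phosphate. The mature miRNA travels from shoot to root in the phloem and directs cleavage of PHO2 mRNA, which encodes a ubiquitin-conjugating enzyme that removes phosphate transporters. IPS1, a non-coding RNA, sequesters miR399. The assay counted small RNA fragments per locus and neither PHO2 nor IPS1 was measured.

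The mature sequences show which counts can be told apart. They were read from the RefSeq annotation of TAIR10.1, which matched all 323 loci by AGI identifier, and are written 5′ to 3′ with the seed (bases 2 to 8) in capitals:
miR399b and miR399c-3p: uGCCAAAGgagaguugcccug
miR399a: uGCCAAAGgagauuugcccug
miR399d: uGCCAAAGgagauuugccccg
miR399e: uGCCAAAGgagauuugccucg
miR399f: uGCCAAAGgagauuugcccgg
miR399c-5p: gGGCAUCUuucuauuggcagg
MIR399B and MIR399C make the same mature miRNA of 21 bases. In the genome this sequence had 2 exact matches, at chr1:23345387-23345407 on the minus strand in the MIR399B hairpin and at chr5:24962568-24962588 on the plus strand in the MIR399C hairpin. The other 4 members share the seed and differ at 1 to 3 positions counted from the 5′ end of miR399b, namely G13U in miR399a, G13U and U20C in miR399d, G13U, C19U and U20C in miR399e, and G13U and U20G in miR399f. The opposite arm of the MIR399C hairpin, annotated as miR399c-5p, had 1 match in the genome. The hairpins have 135 (MIR399B) and 114 (MIR399C) bases, are identical in 57.8% of aligned columns, and their longest shared run is 21 bases, the length of the mature miRNA. A read of the mature miRNA therefore fits both loci, and no source used here says how the authors assigned such reads. The counts below are counts of loci, and the sum of both loci was tested beside each.

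Over the 27 libraries MIR399B had 3101 counts, from 29 to 206 per library, and was 42nd of the 323 loci. MIR399C had 296 counts, from 0 to 26 per library, and was 70th. These were 0.277% and 0.0264% of all miRNA counts, not divided by hairpin length. MIR399B was above 0 in 27 libraries and MIR399C in 26. Library totals ran from 681228 to 1970871 counts, of which 15790 to 67899 were miRNA counts. Levels are given as CPM, counts per 1000000 miRNA counts after TMM scaling, unless another scale is named, and a change is therefore relative to other miRNAs. Counts of fragments cannot tell fewer cells of a type from less RNA per cell.

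**Figure D1:**
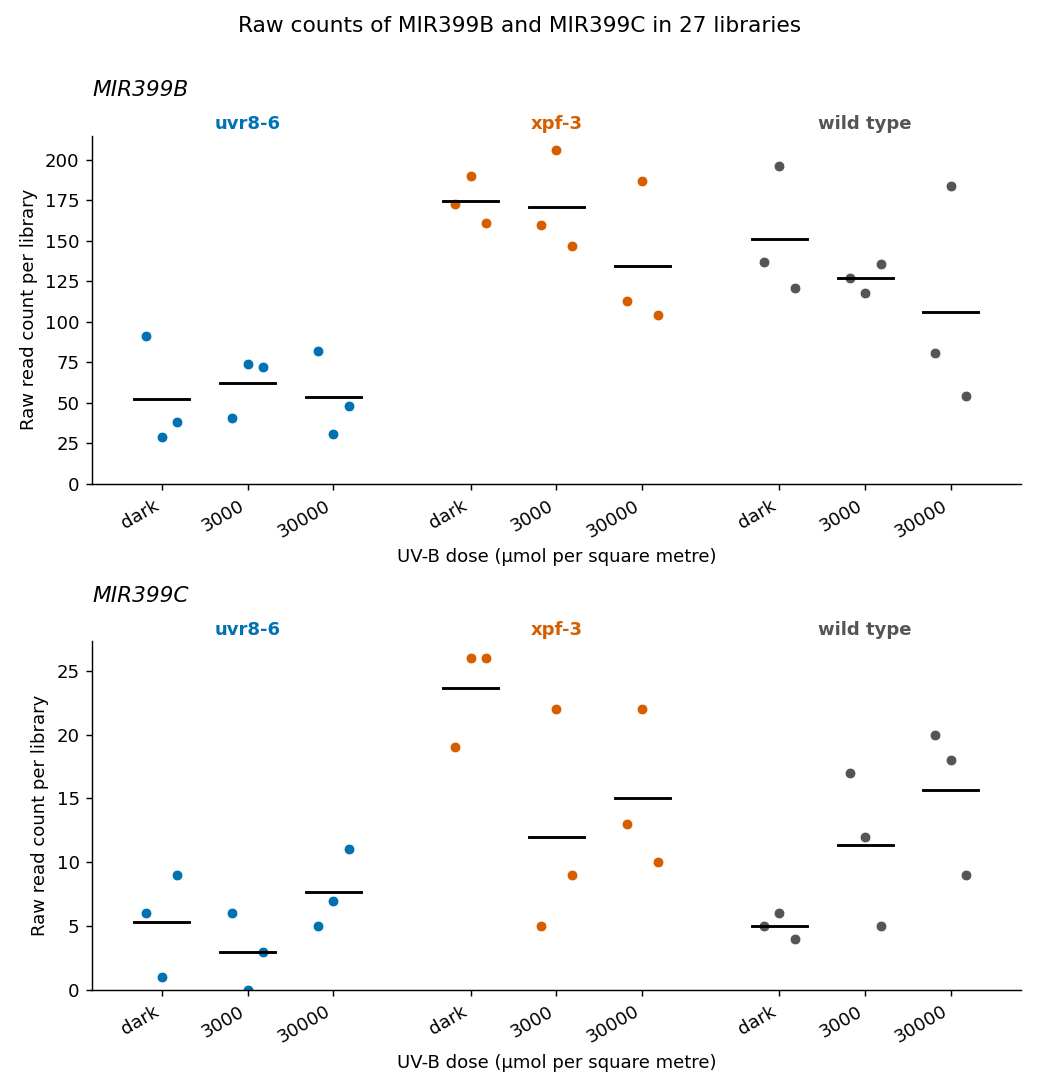
Raw read counts of MIR399B (upper panel) and MIR399C (lower panel) by genotype and UV-B dose, with each library as a point and the mean of 3 libraries as a bar. The uvr8-6 libraries hold 29 to 91 MIR399B counts, and the 3 dark WT libraries hold 4 to 6 MIR399C counts.

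MIR399C was higher in WT hypocotyls after the higher UV-B dose than in dark WT. The 3 libraries given 30000 µmol per square metre had 20, 18 and 9 counts (821, 326 and 568 CPM), against 5, 6 and 4 counts (102, 84.4 and 112 CPM) in the dark. The groups did not overlap in counts or in CPM. Complete separation of 3 against 3 libraries reaches an exact two-sided permutation p of 0.1 at best. The share of tested loci that separated was not counted, here or in the comparisons below. The same libraries held 26593, 52915 and 15790 miRNA counts after UV-B, against 46851, 67899 and 37541 in the dark. The mean was 572 ± 247 CPM after UV-B and 99.3 ± 13.8 CPM in the dark (SD, n = 3 each), a log2 change of 2.49 ± 0.73 (SE) or 5.60-fold (edgeR adjusted p = 0.0229 over 101 tested loci). In this comparison 14.9% of tested loci were called and 4.95% were called higher. After the lower dose MIR399C had 17, 12 and 5 counts in WT (271, 287 and 123 CPM). In CPM each of these libraries was above each dark library, whereas the ranges overlapped in raw counts and as CPM of all small RNAs (14.1, 10.6 and 5.19 after UV-B, against 3.03, 5.42 and 5.80 in the dark). The log2 change of 1.19 ± 0.72 was not called (n = 3 per group, edgeR adjusted p = 0.759; 0.990% of loci called).

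The call at the higher dose rested on few counts. It was lost without dark replicate I (edgeR adjusted p = 0.0905), II (0.117) or III (0.0703) and without 30000 replicate I (0.102) or III (0.0544), and was kept without 30000 replicate II (0.0221), with log2 changes of 2.02 to 2.79. With library sizes of all small RNAs it was 1.55 ± 0.75 (edgeR adjusted p = 0.115), a scale that shifted the median locus by −0.93. With no low-count filter it was 2.22 ± 0.73 and was not called (edgeR adjusted p = 0.0824).

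MIR399B was not called in the same libraries. It had 81, 184 and 54 counts (3324, 3336 and 3410 CPM) after 30000 µmol per square metre, against 137, 196 and 121 counts (2789, 2758 and 3380 CPM) in the dark. The ranges overlapped, and the log2 change was 0.18 ± 0.32 (SE, n = 3 per group, edgeR adjusted p = 0.855). After the lower dose WT libraries had 127, 118 and 136 counts of MIR399B, a log2 change of −0.13 ± 0.32 (edgeR adjusted p = 0.921, n = 3 per group). The sum of both loci changed by 0.37 ± 0.30 at the higher dose (edgeR adjusted p = 0.431, n = 3 per group) and was not called. The call was thus made for MIR399C and not for the sum of both loci.

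The value of MIR399B after UV-B depended on the scale. As CPM of all small RNAs it stood at 97.9, 132 and 64.1 in WT after the higher dose, against 83.0, 177 and 176 in the dark. The miRNA part of those libraries was 2.96% ± 0.99 after UV-B and 4.81% ± 1.74 in the dark (SD, n = 3 each), and its part in the MIR399 values was not tested. On the same scale MIR399C stood at 24.2, 12.9 and 10.7 after UV-B against 3.03, 5.42 and 5.80 in the dark, again with no overlap.

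**Figure D2:**
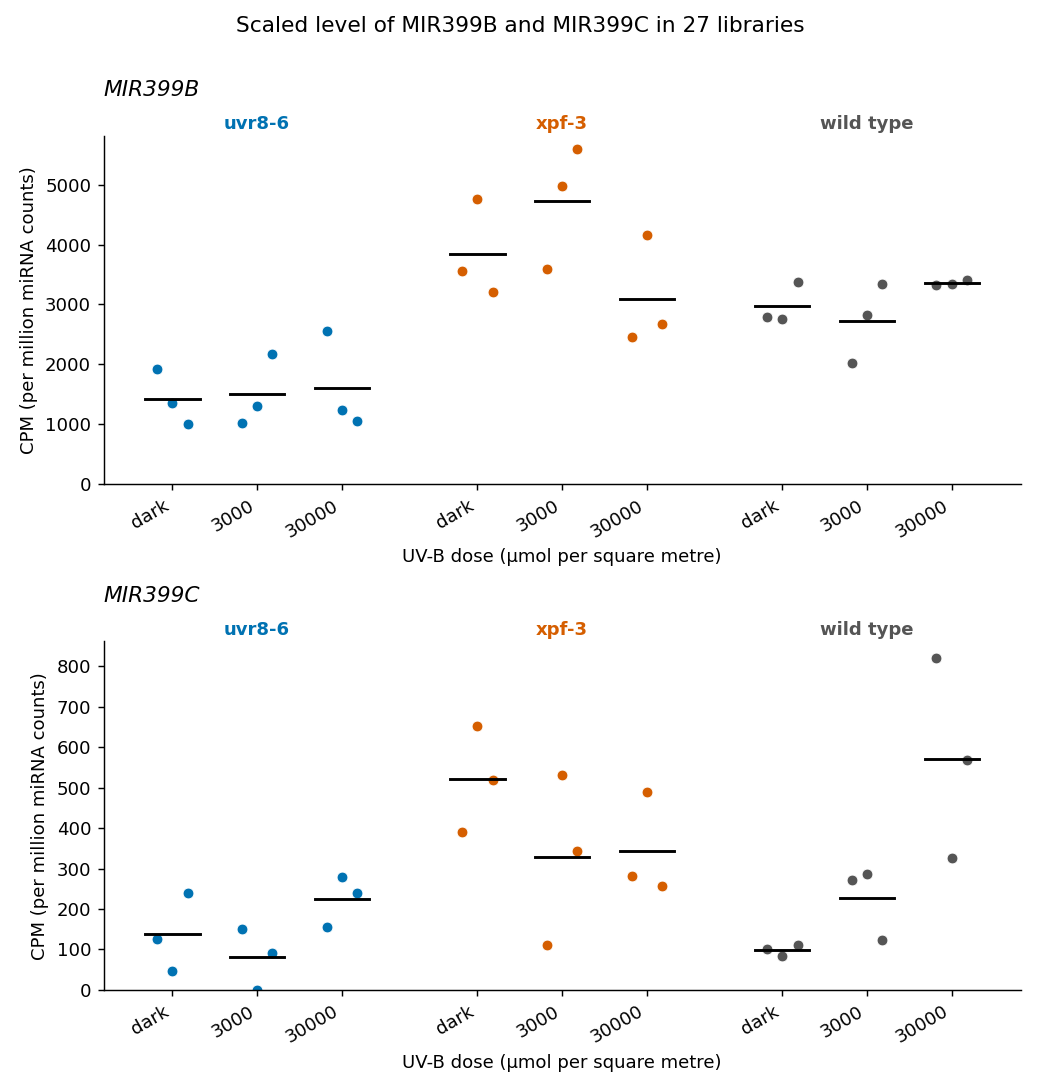
TMM-scaled CPM, relative to all miRNA counts, of MIR399B (upper panel) and MIR399C (lower panel) by genotype and UV-B dose, with each library as a point and the mean of 3 libraries as a bar. The mean of MIR399B is lowest in uvr8-6 at each dose (1425 to 1612 CPM), and MIR399C is highest in WT after 30000 µmol per square metre (mean 572 CPM) and in dark xpf-3 (mean 520 CPM).

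In xpf-3 the mean CPM of MIR399C was highest in the dark, with ranges that overlapped those after UV-B. Dark xpf-3 libraries had 19, 26 and 26 counts (390, 653 and 518 CPM), against 5, 6 and 4 counts (102, 84.4 and 112 CPM) in dark WT. The 2 groups did not overlap, and the log2 difference was 2.37 ± 0.72 (n = 3 per group), the smallest p of the 101 tested loci. It was not called (edgeR adjusted p = 0.356; 0% of loci called, 5 of them at an unadjusted p under 0.05), while DESeq2 called it as its single locus (2.42 ± 0.67, DESeq2 adjusted p = 0.0341). MIR399B in the dark had 173, 190 and 161 counts in xpf-3 and 137, 196 and 121 in WT, a log2 difference of 0.37 ± 0.32 (edgeR adjusted p = 0.728, n = 3 per group).

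UV-B gave no called change of either locus in xpf-3. MIR399C had 5, 22 and 9 counts (112, 532 and 342 CPM) after the lower dose and 13, 22 and 10 counts (282, 489 and 257 CPM) after the higher dose. Both ranges overlapped that of dark xpf-3, with log2 changes of −0.66 ± 0.67 and −0.59 ± 0.67 (n = 3 per group, edgeR adjusted p = 0.612 and 0.564; 6.93% and 15.8% of loci called). MIR399B had 160, 206 and 147 counts after the lower dose and 113, 187 and 104 after the higher dose, against 173, 190 and 161 in the dark. Its log2 changes were 0.30 ± 0.32 and −0.31 ± 0.32 (n = 3 per group, edgeR adjusted p = 0.612 and 0.527). With library sizes of all small RNAs the value at the higher dose was −1.11 ± 0.32 and was called (edgeR adjusted p = 0.00968), on a scale that shifted the median locus by −0.77.

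Whether xpf-3 responded to UV-B as WT did was tested as a difference of responses. For MIR399C the xpf-3 response minus the WT response was −3.08 ± 0.99 on the log2 scale at the higher dose (n = 3 per group, 4 groups), second of the 101 loci by p. It was not called (edgeR adjusted p = 0.212; 0% of loci called, 8 at an unadjusted p under 0.05), whereas DESeq2 called 2 loci, this one among them (−3.16 ± 0.91, DESeq2 adjusted p = 0.0373). At the lower dose the difference was −1.85 ± 0.99 (edgeR adjusted p = 0.814). The comparisons within WT, within xpf-3 and between the dark groups share the dark libraries, so their values are not independent. For MIR399B the differences of response were 0.42 ± 0.45 and −0.49 ± 0.45 at the lower and higher dose, and neither was called (n = 3 per group, edgeR adjusted p = 0.909 and 0.695).

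MIR399B was lower in uvr8-6 than in WT, in the dark and as a mean over the treatments. In the dark uvr8-6 libraries had 91, 29 and 38 counts (1917, 1351 and 1007 CPM), against 137, 196 and 121 counts (2789, 2758 and 3380 CPM) in WT. The groups did not overlap, also as CPM of all small RNAs (76.6, 42.6 and 32.4 in uvr8-6 against 83.0, 177 and 176 in WT). The mean was 1425 ± 460 CPM in uvr8-6 and 2976 ± 350 CPM in WT (SD, n = 3 each), a log2 difference of −1.05 ± 0.33 (SE, edgeR adjusted p = 0.0319). In this comparison 14.9% of tested loci were called, 6.93% lower and 7.92% higher. The call was lost without uvr8-6 dark replicate III (−0.69, edgeR adjusted p = 0.145) or WT dark replicate III (−0.95, edgeR adjusted p = 0.107), and with the 2 groups fitted alone (−1.08, edgeR adjusted p = 0.0721). The sum of both loci stood at −0.97 ± 0.31 (n = 3 per group, edgeR adjusted p = 0.0314). The call on the sum was lost without any 1 library other than uvr8-6 dark replicate I (edgeR adjusted p = 0.0525 to 0.118), with no low-count filter (0.0887) and with the 2 groups fitted alone (0.0719). The sum was fitted with its own TMM factors. Without WT dark replicate II MIR399B stood at −1.28 (edgeR adjusted p = 0.0219) and the sum at −0.86 (edgeR adjusted p = 0.0640). Without uvr8-6 dark replicate I they stood at −1.21 and −1.22. The part of the separate scaling in the lost calls was not tested.

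Averaged over the 3 treatments the lower MIR399B in uvr8-6 was measured with 9 libraries per genotype. The lowest, median and highest values were 1007, 1309 and 2552 CPM in uvr8-6, against 2022, 3324 and 3410 CPM in WT. These ranges overlapped. The log2 difference was −0.99 ± 0.19 (SE, edgeR adjusted p = 0.000252), and that of the sum was −1.0 ± 0.18 (edgeR adjusted p = 8.58e-05). Of the 101 loci 43.6% were called and 23.8% were called lower, so a call was common in this comparison. Each of the 18 fits that left out 1 library kept the MIR399B call, with values of −1.11 to −0.74. For MIR399C the values were 0, 149 and 279 CPM in uvr8-6 and 84.4, 271 and 821 CPM in WT, a log2 difference of −0.78 ± 0.43 that was not called (n = 9 per genotype, edgeR adjusted p = 0.158). Between xpf-3 and WT neither MIR399B (0.35 ± 0.18) nor MIR399C (0.72 ± 0.40) was called over the 3 treatments (n = 9 per genotype, edgeR adjusted p = 0.570 and 0.595; 1.98% of loci called).

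Neither locus had a called response to UV-B in uvr8-6. MIR399B had 41, 74 and 72 counts after the lower dose and 82, 31 and 48 after the higher dose, against 91, 29 and 38 in the dark. All 3 ranges overlapped, with log2 changes of 0.061 ± 0.33 and 0.17 ± 0.34 (n = 3 per group, edgeR adjusted p = 1 and 0.811; 0% and 2.97% of loci called). At the lower dose 5 loci were at an unadjusted p under 0.05 and DESeq2 called 0. MIR399C had 6, 0 and 3 counts after the lower dose and 5, 7 and 11 after the higher dose, against 6, 1 and 9 in the dark. Its log2 changes were −0.88 ± 0.78 and 0.64 ± 0.73 (n = 3 per group, edgeR adjusted p = 1 and 0.610). In dark hypocotyls MIR399C stood at 137 ± 96.3 CPM in uvr8-6 and 99.3 ± 13.8 CPM in WT (SD, n = 3 each), a log2 difference of 0.52 ± 0.75 (edgeR adjusted p = 0.718). The uvr8-6 response of MIR399C minus that of WT was −2.07 ± 1.06 at the lower and −1.85 ± 1.03 at the higher dose, and neither was called (n = 3 per group, edgeR adjusted p = 1.0 and 0.553). For MIR399B these differences were 0.19 ± 0.46 and −0.0089 ± 0.47 (edgeR adjusted p = 1.0 for each, n = 3 per group).

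**Figure D3:**
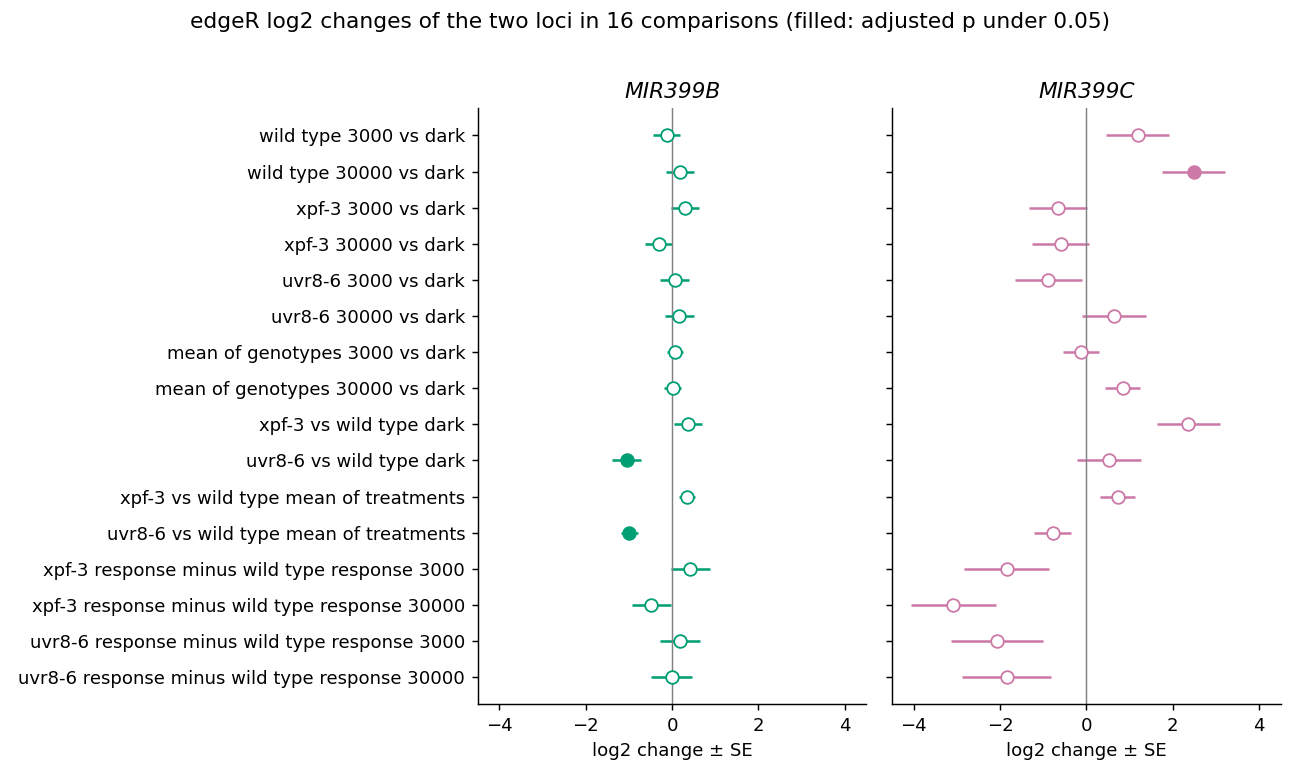
Log2 changes (points) with standard errors (lines) of MIR399B (left) and MIR399C (right) in 16 comparisons by edgeR, with filled points at an adjusted p under 0.05. MIR399C is called in WT at 30000 against dark (2.49), and MIR399B in uvr8-6 against WT in the dark (−1.05) and over the treatments (−0.99).

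Averaged over the genotypes, neither locus passed the test for a response to UV-B. At the higher dose MIR399C stood at 0.84 ± 0.41 (n = 9 per condition, edgeR adjusted p = 0.113), where 34.7% of loci were called and 18.8% were called higher, and at the lower dose at −0.12 ± 0.42 (edgeR adjusted p = 1.0). It was called at the higher dose when the libraries of the lower dose were left out of the fit (0.92 ± 0.31, edgeR adjusted p = 0.0264). MIR399B stood at 0.0099 ± 0.19 at the higher and 0.077 ± 0.19 at the lower dose (n = 9 per condition, edgeR adjusted p = 1.0 and 0.963). With library sizes of all small RNAs MIR399B was called lower at the higher dose (−0.77 ± 0.19, edgeR adjusted p = 0.00165), on a scale that shifted the median locus by −0.71.

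The share of MIR399C in the counts of both loci does not depend on library size. In WT it was 19.8%, 8.91% and 14.3% after the higher dose, against 3.52%, 2.97% and 3.20% in the dark. The groups did not overlap, and the difference in means was 11.1 percentage points (exact two-sided permutation p = 0.1, the smallest that 3 against 3 libraries allow; Benjamini-Hochberg adjusted p = 0.269 over 10 tests). After the lower dose WT shares were 11.8%, 9.23% and 3.55%, and the lowest of them lay just above the highest dark share. The difference was 4.96 percentage points (exact permutation p = 0.1, adjusted p = 0.269). The exact 95% binomial intervals of the dark WT libraries ran from 0.879% to 8.03%, and those after the higher dose from 5.37% to 28.9%, for counting error only.

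In xpf-3 the share in the dark was 9.90%, 12.0% and 13.9%, above each dark WT library. It was 3.03%, 9.65% and 5.77% after the lower dose, which did not overlap the dark xpf-3 range (difference −5.80 percentage points, exact permutation p = 0.1, adjusted p = 0.269). After the higher dose it was 10.3%, 10.5% and 8.77% (difference −2.07 percentage points, exact permutation p = 0.3, adjusted p = 0.600). The shares of uvr8-6 spread most. They were 6.19%, 3.33% and 19.1% in the dark, 12.8%, 0% and 4% after the lower dose and 5.75%, 18.4% and 18.6% after the higher dose, and neither dose was told apart from dark (exact permutation p = 0.6 and 0.7). The library at 0 had 0 of 74 counts, which allows a share of up to 4.05% by a floor of 3 counts and 4.86% by the exact 95% interval. With the genotypes as strata the higher dose differed from dark by 4.58 percentage points (exact permutation p = 0.108 over 8000 arrangements, adjusted p = 0.269) and the lower dose by −1.60 (p = 0.536 by the same exact permutation test). With the treatments as strata the share differed from WT by 0.737 percentage points in xpf-3 and 1.22 in uvr8-6 (exact permutation p = 0.726 and 0.678).

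**Figure D4:**
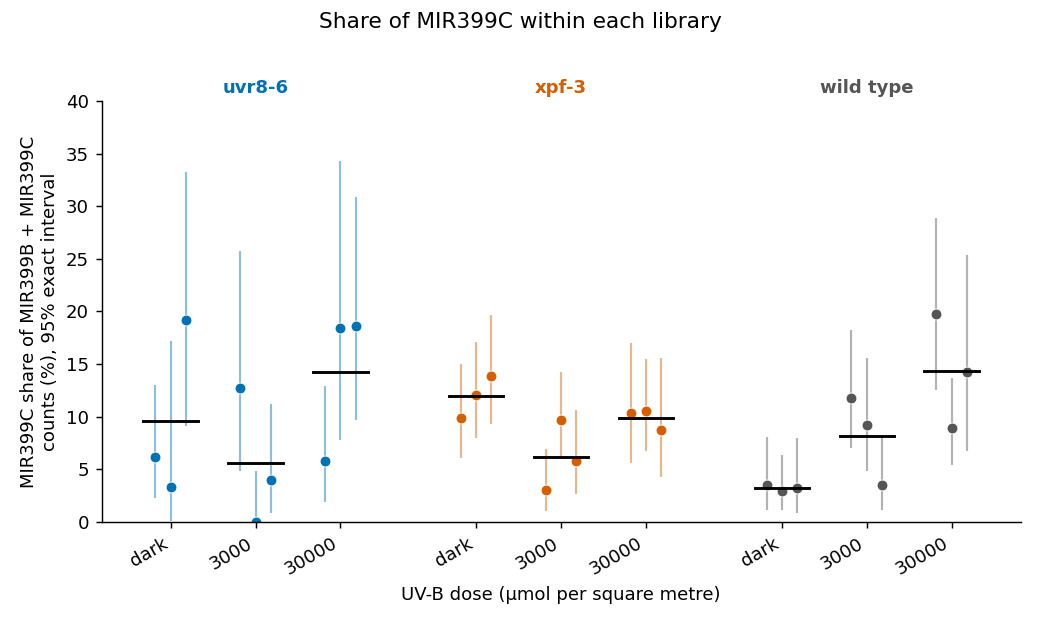
Share of MIR399C in the summed MIR399B and MIR399C counts of each library (points, percent) with exact 95% binomial intervals (lines) and group means (bars). The 3 WT libraries after 30000 µmol per square metre lie at 8.91% to 19.8%, above the 3 dark WT libraries at 2.97% to 3.52%.

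Ordered by mean CPM, MIR399B was highest in xpf-3 after the lower dose (4721 ± 1027 CPM, SD, n = 3), and the 3 uvr8-6 groups were lowest, at 1425 to 1612 CPM. MIR399C was highest in WT after the higher dose (572 ± 247 CPM) and in dark xpf-3 (520 ± 131 CPM). It was lowest in uvr8-6 after the lower dose (80.1 ± 75.3 CPM) and in dark WT (99.3 ± 13.8 CPM). Each neighbouring pair of groups in either order overlapped in its libraries, so no single step of the order exceeded the spread.

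The other counted miRNA loci of the phosphate response were close to the limit of these libraries. A list of 10 loci known to be induced by phosphate starvation held the 6 MIR399 loci, MIR827A, MIR778A, MIR2111A and MIR2111B. Of these, 8 are in the table and 2, MIR399B and MIR399C, passed the low-count filter, so MIR2111A and MIR2111B were not analysed here. MIR399A had 7 counts over the 27 libraries, MIR399D 4, MIR399E 0 and MIR399F 9. MIR827A, whose product targets the ubiquitin ligase gene NLA, and MIR778A had 6 counts each. Together MIR399B and MIR399C held 99.4% of the 3417 counts of the MIR399 family. At the higher dose in WT 1 of the 2 tested loci (MIR399C) was called higher, beside 4.95% of all tested loci, and in dark uvr8-6 1 of 2 (MIR399B) was called lower, beside 6.93%. The 2 tested loci are the members themselves, so these counts restate the calls above and say nothing about the rest of the list. Each of these calls was lost when certain single libraries were left out, as given above. The 6 MIR395 loci of the sulfate starvation response had 10 to 40 counts each and 0 of 6 passed the filter.

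The promoters of the 2 loci differ in matches to the element that PHR1 binds. The P1BS element, searched as GNATATNC on both strands, was in 6.2% of 33466 windows from 250 bases before to 50 bases after the annotated start of all genes, and in 8.3% of 326 miRNA gene windows. The annotated start of a miRNA gene is that of its hairpin, not a measured transcription start. MIR399C had 1 match, starting 193 bases before the start, and MIR399B had 0. MIR399A, MIR399D and MIR399E had 1 each and MIR399F had 2. The G-box CACGTG was in 0 of these 6 windows and in 7.0% of all windows. Its core ACGT, bound by HY5 and other bZIP factors, was in neither MIR399B nor MIR399C and in 48.6% of all windows. Of these 3 motifs MIR399B and MIR399C differ by the P1BS match, which is a description of the windows and not of binding. The windows of both loci are shown in TAIR10.1 with the P1BS match in capitals, for chr1:23345462-23345761 on the minus strand and chr5:24962235-24962534 on the plus strand:
MIR399B: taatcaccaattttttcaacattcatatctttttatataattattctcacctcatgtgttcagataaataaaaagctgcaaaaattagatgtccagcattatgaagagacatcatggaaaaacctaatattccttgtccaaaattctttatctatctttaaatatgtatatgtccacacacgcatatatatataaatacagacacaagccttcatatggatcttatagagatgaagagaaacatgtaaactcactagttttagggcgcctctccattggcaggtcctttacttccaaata
MIR399C: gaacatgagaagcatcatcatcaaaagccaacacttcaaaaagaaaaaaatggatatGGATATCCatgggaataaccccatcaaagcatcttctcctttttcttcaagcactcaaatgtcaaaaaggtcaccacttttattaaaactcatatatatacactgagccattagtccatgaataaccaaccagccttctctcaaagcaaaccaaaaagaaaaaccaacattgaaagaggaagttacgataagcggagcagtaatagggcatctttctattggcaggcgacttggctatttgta

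The loci with the most similar pattern over the 27 libraries were named by Spearman's rho of CPM, as a description over libraries that share genotypes and doses. For MIR399B they were MIR169M (0.83), MIR168A (0.71) and MIR169H (0.67), and MIR399C stood at 0.52. miR168 acts on ARGONAUTE1 mRNA and miR169 on mRNAs of NF-YA subunits. For MIR399C they were MIR165B (0.67), MIR169C (0.62) and MIR169M (0.60). miR165 targets HD-ZIP III transcription factors. The median over the other tested loci was 0.071 for MIR399B and 0.13 for MIR399C. Over the 9 group means the highest were MIR172E (0.95), MIR169M (0.87) and MIR168B (0.83) for MIR399B, and MIR165B (0.88), MIR169C (0.88) and MIR169I (0.86) for MIR399C.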

How the data were processed

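The 27 small RNA libraries were grouped by genotype and dose as their titles give them. Raw counts per locus are used as the authors deposited them, for 323 miRNA loci and for 2071 loci of all small RNA classes. The submitters' processing notes name FastQC and cutadapt without versions. No source used here names an aligner, a counter, a build or a rule for reads with several matches. A further 272 columns of values were not used.

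Tests used edgeR 4.0.16 in R 4.3.3, as a quasi-likelihood fit over the 9 groups (18 residual degrees of freedom), with TMM factors and low counts removed by filterByExpr (min.count 10). This left 101 miRNA loci. P-values of each of 16 comparisons were adjusted over all of them (Benjamini-Hochberg), and calls are at 0.05. The SE was derived from the log2 change and its F statistic. A second fit replaced both loci by their sum (100 loci). Alternatives were DESeq2 1.42.0, other scalings, no filter, a replicate block and left-out libraries. Shares were tested by exact permutation. Binomial intervals are exact (Clopper-Pearson) and cover counting error only.

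Members, lists and tests were chosen with earlier results of these data known. The genes named are the members, the listed phosphate and sulfate loci, and the 3 loci of highest Spearman's rho with each member. Sequences were read from TAIR10.1 with its own RefSeq annotation, as the build behind the counts is not known.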

Additional observations from a re-analysis of the deposited data

How the results depend on the processing

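MIR399C had at most 26 counts in a library, and its SE in WT at the higher dose was 0.73, against 0.32 for MIR399B with 54 to 196 counts. Fits that left out a library or used only the groups compared kept the 101 loci, a choice made after the data had been seen. Of 340 values under 7 other settings 296 were kept, as were 607 of 684 with 1 library left out. A change or a share was kept if its direction and side of the threshold stayed. A change called in neither fit thus counted as kept if its sign stayed, also where DESeq2 gave no adjusted p. The totals therefore do not measure how stable the calls are. A number of called loci was kept if it stayed within a fixed ratio of the main number, and was included for 7 of the 16 comparisons. Among the remaining comparisons DESeq2 differed most at the lower dose, in xpf-3 (18 calls in place of 7) and in the mean over genotypes (16 in place of 3). A share from counts summed over libraries was kept if its direction stayed and it moved by less than the mean SD. The cause of the values not kept was not tested beyond the scale shifts given above.

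With library sizes of all small RNAs the log2 value of MIR399C in WT at the higher dose was 1.55 and was no longer called. Against dark, MIR399B changed sign to −0.75 in WT, −0.43 in uvr8-6 and −0.77 in the mean at the higher dose, and to −0.32 in xpf-3, −0.069 in uvr8-6 and −0.28 in the mean at the lower dose. The sum of both loci changed sign to −0.58 in WT, −0.35 in uvr8-6 and −0.69 in the mean at the higher dose, and to −0.41 in xpf-3 and −0.31 in the mean at the lower dose. In xpf-3 at the higher dose MIR399B (−1.11) and the sum (−1.15) became called, as did both in the mean over genotypes at that dose (0.00165 for MIR399B and 0.00207 for the sum as edgeR adjusted p). The uvr8-6 difference of response at the higher dose became 0.32 for MIR399B and 0.23 for the sum, and the xpf-3 difference of the sum at the lower dose −0.011. This setting called 28 loci in place of 15 in WT and 33 in place of 16 in xpf-3 at the higher dose.

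With no low-count filter MIR399C in WT at the higher dose was 2.22 and not called (edgeR adjusted p = 0.0824), and the sum in dark uvr8-6 was −0.94 and not called. MIR399B became −0.099 in WT and −0.23 in the mean at the higher dose, −0.056 in the mean at the lower dose and 0.17 for the uvr8-6 difference of response at the higher dose. The sum became 0.049 and −0.026 in uvr8-6 at the lower and higher dose and −0.096 in the mean at the higher dose. Dark uvr8-6 against WT had 9 calls in place of 15.

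With RLE factors and with DESeq2 the sum in uvr8-6 at the lower dose was 0.060 and 0.048, and MIR399B in the mean at the higher dose was −0.018 and −0.020. DESeq2 called MIR399C in dark xpf-3 (2.42, 1 call in place of 0) and in the xpf-3 difference of response at the higher dose (−3.16, 2 calls in place of 0), and 28 loci in xpf-3 at the higher dose. With only the groups compared, the sum in uvr8-6 at the lower dose was 0.0058, MIR399C in the mean at the higher dose became called (0.92), MIR399B and the sum in dark uvr8-6 were −1.08 and −0.98 and not called, and the calls were 10 in xpf-3 at the higher dose and 2 in dark uvr8-6.

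Same-numbered libraries of different groups had deviations that correlated at −0.41 to 0.46, over 0.1 in 18 of 108 pairs. The median was −0.016, against 0.0067 for libraries of different numbers, so the numbers showed no pairing across the groups as a whole. A batch shared by only some groups was not tested. With the replicate block MIR399C in WT at the higher dose was 2.49 and MIR399B in dark uvr8-6 was −1.04, and no call on MIR399B, MIR399C or their sum changed.

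With 1 library left out, MIR399C in WT at the higher dose was 2.02 to 2.79, and in dark uvr8-6 MIR399B was −1.28 to −0.69 and the sum −1.22 to −0.69. Values whose sign changed ran as follows for MIR399B: −0.48 to 0.040 and −0.21 to 0.27 in WT at the lower and higher dose, −0.29 to 0.44 and −0.29 to 0.44 in uvr8-6, −0.10 to 0.20 and −0.16 to 0.086 in the mean, and −0.17 to 0.59 and −0.45 to 0.28 for the uvr8-6 difference of response. For the sum they were −0.19 to 0.041 in WT at the lower dose, −0.36 to 0.24 and −0.16 to 0.48 in uvr8-6, −0.076 to 0.13 and −0.12 to 0.16 in the mean, and −0.30 to 0.30 and −0.54 to 0.10 for the uvr8-6 difference of response. MIR399C in the mean at the lower dose was −0.45 to 0.099. The share of MIR399C differed from WT by −0.167 to 1.65 percentage points in xpf-3 and −0.380 to 2.64 in uvr8-6, and between the lower dose and dark in uvr8-6 by −7.56 to 0.829. Calls over all loci were 7 to 19 in WT and 6 to 17 in xpf-3 at the higher dose, 8 to 17 in dark uvr8-6, and 0 to 1 for the xpf-3 difference of response at the higher dose.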
